A study of Drosophila melanogaster with 20 samples.

Results

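Nuclear transfer RNA (tRNA) reads were followed by amino acid through 20 small RNA libraries from sorted cells of Drosophila melanogaster embryos. The members were the annotated features whose FlyBase symbol begins with tRNA: and which lie on a nuclear chromosome, and 295 of the 17559 features met that rule. They carried 45 anticodons for 22 amino acid classes, in which initiator methionine (iMet) and selenocysteine (SeC) were kept as classes of their own. By chromosome arm, 100 of the genes lay on 2R, 79 on 3R, 49 on 3L, 41 on 2L and 26 on X. The symbols of 5 members marked pseudogenes, which held at most 4.16% of the nuclear tRNA counts of any library. An intron between 2 exons was annotated for 16 members, of which 10 were Tyr, 4 were Leu-CAA and 2 were Ile genes.

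Embryos had been collected 6-8 h or 18-22 h after egg laying. Their dissociated cells were fixed with 4% formaldehyde, immunostained for a marker protein and separated by flow cytometry into a marker-positive and a marker-negative fraction. The repo and elav sorts were made at both stages and the pros (prospero) sort at 6-8 h, which gave 10 groups of 2 biological duplicates. The labels describe repo-positive cells as enriched glia, elav-positive cells as enriched neurons and pros-positive cells as enriched neuroblasts. Every fraction is thus an enrichment from whole embryos, and a negative fraction holds all remaining cell types of the embryo. The labels name no strain or transgene, and every group shared the fixation and staining steps.

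A tRNA carries 1 amino acid and reads the matching codons of a messenger RNA through its anticodon. RNA polymerase III transcribes the genes from promoter elements inside them, the precursor is trimmed, spliced where it has an intron and modified, and an aminoacyl-tRNA synthetase loads the amino acid. Animals also make short RNAs by cutting tRNAs, and these fall in the size range of small RNA libraries. The annotated exons of the members spanned 71 to 87 bases, with a median of 73.0, and the reads were 51 bases long. The counts therefore cannot tell whole tRNAs from their fragments, and they do not measure the charged or translating pool. In sorted bulk samples, fewer cells of a type and less RNA per cell cannot be told apart either.

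Nuclear tRNAs were a minor class of these libraries. A library held 9446 to 57336 nuclear tRNA counts, which was 0.130% to 0.560% of its 3994804 to 13402457 counts outside miRNA features. The 95% Wilson interval of these shares, which covers counting error only, ran from 0.128% to 0.133% at the lowest library and from 0.553% to 0.567% at the highest. Ribosomal RNA took 46.5% to 64.6% of the same counts, and small nucleolar RNA (snoRNA) took 8.27% to 30.5%. The replicate 2 libraries of elav-positive and elav-negative cells at 6-8 h stood apart, with 1.01% and 2.09% of their counts on miRNA features against 8.34% to 41.4% in the other 18. In those 2 libraries 25 and 21 nuclear tRNA rows had no count, against 0 to 10 rows in the others. The pros libraries carried another mapping directory in their file headers than the rest, so pros fractions are set only against each other in the tests. Fixed lists of cell type genes moved with the sorts. In the positive fractions, the repo sort enriched all 6 glial genes early and 4 of 6 late, the elav sort all 6 neuronal genes early and late, and the pros sort 5 of 6 genes listed for neuroblasts. Neuronal genes were also higher in other positive fractions at 6-8 h, 3 of 6 in the repo sort and 4 of 6 in the pros sort. The glial genes repo (6-8 h) and nrv2 (18-22 h) were higher in elav-positive cells, while the glial gene loco (18-22 h) was lower. Of the genes listed for neuroblasts, scrt (both stages) and pros (18-22 h) were also higher in elav-positive cells, and wor (18-22 h) was lower in repo-positive cells.

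Copies of a tRNA gene share reads, and 94.8% of the nuclear tRNA values were not whole numbers because a read had been divided among the places it matched. Single rows were therefore not tested, and counts were summed by amino acid or by anticodon. Levels are given as CPM (counts scaled to a common library size, here of the counts outside miRNA features), after TMM scaling, and errors of CPM are standard deviations over 2 libraries. Differences are log2 fold changes from one edgeR quasi-likelihood fit over all 20 libraries. Their standard errors are approximate, each derived from the unshrunk fold change and the F statistic of its test. A sum was called changed when its Benjamini-Hochberg adjusted p within a comparison was below 0.05. For amino acid sums the correction ran over all 11471 tested rows. Anticodon sums and the nuclear tRNA total took the place of the amino acid sums in tables of their own.

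Leucine tRNAs made up the largest part of the nuclear tRNA counts. Averaged over the 20 libraries, Leu held 21.1% of them, with a range of 4.01% to 46.5%. Glu followed with 11.8%, His with 11.4%, Ala with 8.97% and Pro with 7.92%. These 5 classes together held 50.4% to 69.5% of the nuclear tRNA counts of a library. At the other end stood Asn with 0.533%, the elongator Met with 0.185% and SeC with 0.159%. With counts divided by exon length the same 5 classes led in the same order, and Leu held 19.1%. The class with the highest share was Leu in 14 libraries, His in the 4 pros libraries and Glu in the 2 libraries of elav-negative cells at 18-22 h. The pros libraries are those with another mapping directory, and the part of mapping in their makeup cannot be told apart from that of the sort.

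**Figure D1:**
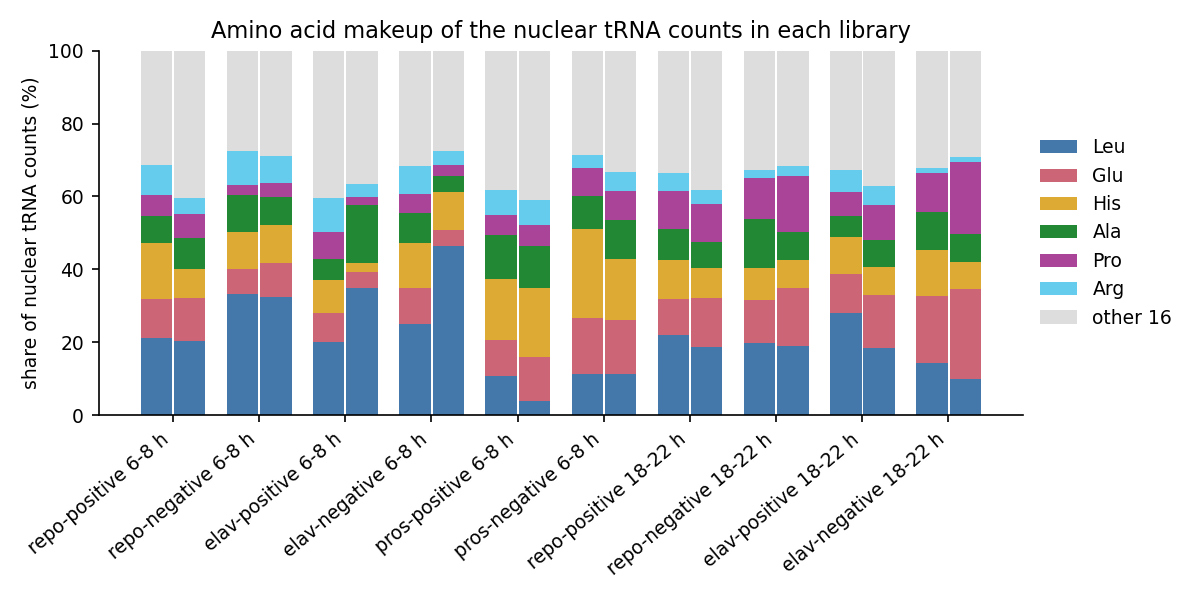
Share of nuclear tRNA counts (%) held by the 6 leading amino acids and by the other 16 together, as stacked bars for each of the 20 libraries, with replicate 1 to the left of replicate 2 in each group. Leu is largest in 14 libraries, while His leads in the 4 pros libraries and Glu in both libraries of elav-negative cells at 18-22 h.

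One anticodon carried most of the Leu signal. Leu-CAA supplied 77.1% of the Leu counts on average, with a range of 36.2% to 91.2%, and its 4 genes lie, in the coordinates of the BDGP6 files, on 2R at 13430695 to 13430815 (minus strand) and 13432668 to 13432794 (plus strand), on 3L at 13214109 to 13214233 (plus strand) and on 3R at 23601333 to 23601455 (minus strand). Mean counts per gene ranged only from 843.1 to 955.3 across these 4 genes, among which shared reads had been divided, so the genes cannot be told apart. All His genes share the anticodon GTG. The TTC anticodon held 61.2% of the Glu counts, CGC held 52.8% of the Ala counts and CGG held 50.8% of the Pro counts. The 6 Glu-TTC genes all lie on 2R, in a group of 2 between 16219374 and 16220123 and a group of 4 between 19564873 and 19728052. The 5 Pro-CGG genes are spread over X and 3L. Among the rarer classes, SeC has the single gene tRNA:SeC-TCA-1-1 on 2R at 11357564 to 11357650, whose tRNA inserts selenocysteine at recoded stop codons.

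Amino acids with more genes tended to hold more of the counts. Across the 22 classes the Pearson r between the number of genes and the mean share was 0.507 and Spearman's rho was 0.69, given as a description because all points come from the same libraries. Across the 45 anticodons r was 0.024 and rho 0.362. His had 2.03% of the genes and 5.61 times that share of the counts, and Leu held 2.82 times its share of the genes. Arg, the class with the most genes at 26, held 0.585 times its share, and Met held 0.091 times.

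**Figure D2:**
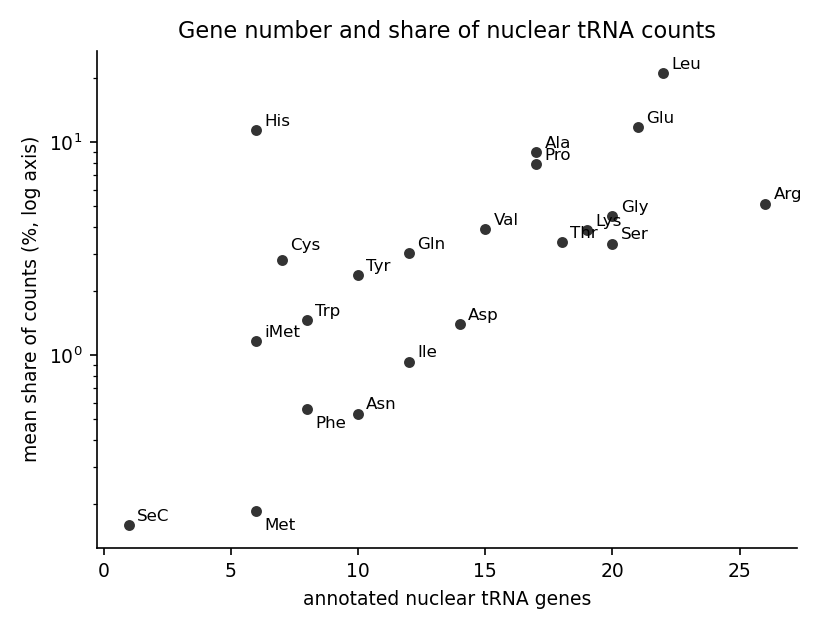
Number of annotated nuclear tRNA genes (horizontal axis) against the mean share of nuclear tRNA counts over the 20 libraries (%, logarithmic vertical axis), 1 point per amino acid class. His lies far above other classes with 6 genes, at 11.4% against 1.17% for iMet and 0.185% for Met.

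Summed over all members and after TMM scaling, nuclear tRNA counts were highest in elav-negative cells at 18-22 h, at 5645 and 8433 CPM. Both values lay above every other library on that scale. Without TMM factors, nuclear tRNAs were 0.456% and 0.530% of the counts outside miRNA features in these 2 libraries. Pros-negative cells at 6-8 h had 0.560% and 0.512%, so the order of these 2 groups depended on the scaling. Next on the TMM scale came pros-negative cells at 6-8 h with 3890 and 3952 CPM. These did not overlap with repo-negative cells at 18-22 h, at 2984 and 3845 CPM. The place of both pros groups in this order is subject to the same limit of mapping. From there on each group overlapped with the next. Repo-positive cells at 18-22 h had 3158 and 2993 CPM, repo-negative cells at 6-8 h had 3161 and 2396 CPM, and pros-positive cells had 2238 and 3079 CPM. Elav-positive cells at 18-22 h had 1815 and 2766 CPM and elav-negative cells at 6-8 h had 2972 and 1575 CPM. The lowest means were those of repo-positive cells at 6-8 h, at 3239 and 1245 CPM, and of elav-positive cells at 6-8 h, at 2264 and 788 CPM. In the repo-positive and both elav groups at 6-8 h replicate 2 lay far below replicate 1, so levels at that stage are poorly fixed.

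**Figure D3:**
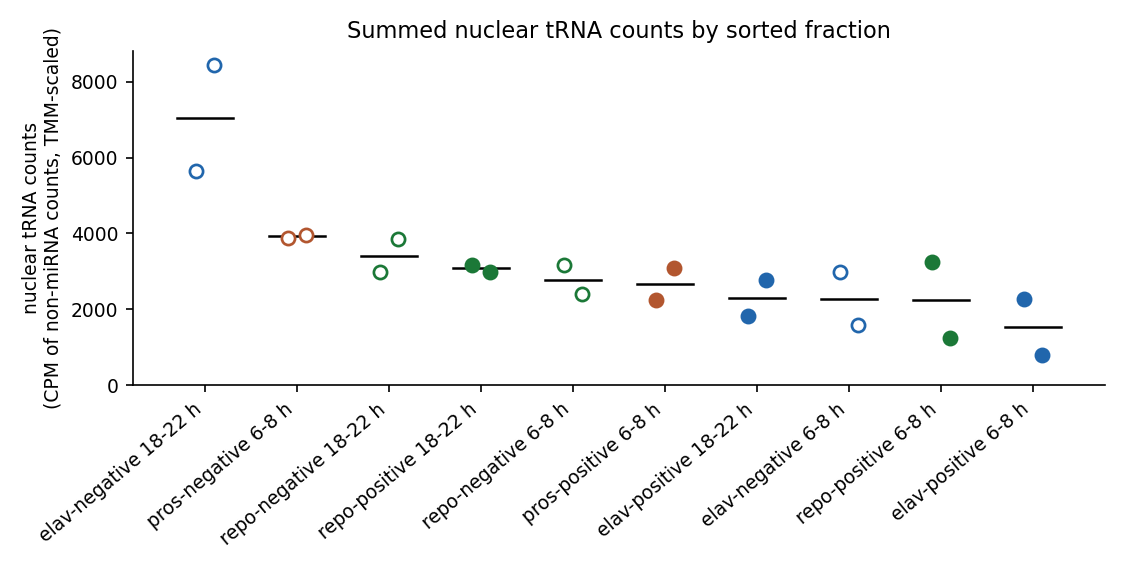
Summed nuclear tRNA counts (CPM of counts outside miRNA features, TMM-scaled) in the 10 groups, in falling order of the mean. Points are libraries, filled for marker-positive and open for marker-negative fractions (green repo, blue elav, brown pros), and bars are means of 2. Both elav-negative libraries at 18-22 h, at 5645 and 8433 CPM, lie above all others on this scale.

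The comparison of elav-positive with elav-negative cells at 18-22 h asks how neurons differ from the remaining cells of late embryos. Nuclear tRNA counts were lower in the neuron-enriched fraction. Of the 22 amino acid sums, 10 fell and 0 rose: Pro, Glu, SeC, Cys, Ala, iMet, Thr, Ile, Lys and Gln. Among all rows tested 14.5% were called in this comparison in either direction, and 5.56% were called lower. The median log2 fold change was -1.49 over the amino acid sums and -0.18 over all rows. The total over all members was 2290 ± 672 CPM in elav-positive and 7039 ± 1971 CPM in elav-negative cells (SD, n = 2), a log2 fold change of -1.62 ± 0.49 (edgeR adjusted p = 0.0310). Without any 1 of the 4 libraries the total kept its direction but missed the threshold, with log2 fold changes of -1.95 to -1.26. It also missed the threshold when libraries were scaled to the total count in place of TMM, with or without rRNA rows. SeC, iMet, Ile, Lys and Gln lost their calls under both of these scalings.

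Pro tRNAs showed the largest fold change, with 117 and 267 CPM in elav-positive and 607 and 1667 CPM in elav-negative cells. No library of the first pair reached the second, although the pair of negative libraries differed widely. The log2 fold change was -2.57 ± 0.74 (edgeR adjusted p = 0.0230). Glu tRNAs stood at 193 and 397 CPM against 1033 and 2085 CPM, a log2 fold change of -2.40 ± 0.68 (edgeR adjusted p = 0.0200). SeC was measured at a far lower level, 3.84 and 3.11 CPM against 14.2 and 21.3 CPM, and fell by 2.35 ± 0.71 on the log2 scale (edgeR adjusted p = 0.0295). Cys tRNAs were the most even between replicates of the negative fraction among these 4, at 37.3 and 78.4 CPM against 220 and 273 CPM. Their log2 fold change was -2.09 ± 0.43 (edgeR adjusted p = 0.00189). Dropping replicate 1 of the positive or replicate 2 of the negative fraction ended the calls of Pro and Glu. The further losses were that of Cys without elav-positive replicate 1 and that of SeC without any 1 of the 4 libraries. Without elav-positive replicate 1 no amino acid sum was called, and without elav-negative replicates 1 and 2 in turn 6 and 3 were called.

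By anticodon, 13 of the 45 sums fell and 0 rose. Glu-TTC stood at 111 and 266 CPM in elav-positive against 818 and 1634 CPM in elav-negative cells, a log2 fold change of -2.70 ± 0.65 (edgeR adjusted p = 0.00702). Pro-CGG stood at 57.3 and 146 CPM against 375 and 1169 CPM, a log2 fold change of -2.93 ± 0.80 (edgeR adjusted p = 0.0164). The same 2 libraries, dropped in turn, each ended both calls. The third named anticodon was SeC-TCA, whose values are those of SeC.

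Arg and Leu, the first a class with a positive sign and the second the most abundant class, were among the 12 sums not called in this comparison. No difference between classes was tested. Arg had 113 and 147 CPM in elav-positive and 75.9 and 120 CPM in elav-negative cells, overlapping values with a log2 fold change of 0.40 ± 0.71 (edgeR adjusted p = 0.774). It was the 1 amino acid sum of 22 with a positive sign. Leu had 508 and 513 CPM against 810 and 831 CPM, which do not overlap, but its log2 fold change of -0.68 ± 0.41 missed the threshold (edgeR adjusted p = 0.302). The rare classes Phe and Met had values nearer to 0, at -0.40 and -0.56. Within the nuclear tRNA counts of each library, Arg held 6.20% and 5.31% in elav-positive and 1.35% and 1.42% in elav-negative cells. When libraries were scaled to their nuclear tRNA total in place of TMM, Arg was the 1 sum called, with a log2 fold change of 2.05 ± 0.62 (edgeR adjusted p = 0.0148), and none was called lower. By anticodon the same scaling called Arg-TCG alone, at 3.31 ± 0.69 (edgeR adjusted p = 0.000571), and on the TMM scale Arg-TCG had 84.7 and 106 CPM against 24.7 and 35.2 CPM (log2 fold change 1.67 ± 0.77, edgeR adjusted p = 0.161). A class that falls as a share of a whole can do so because other classes rose, so shares show unequal change and not which class changed.

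**Figure D4:**
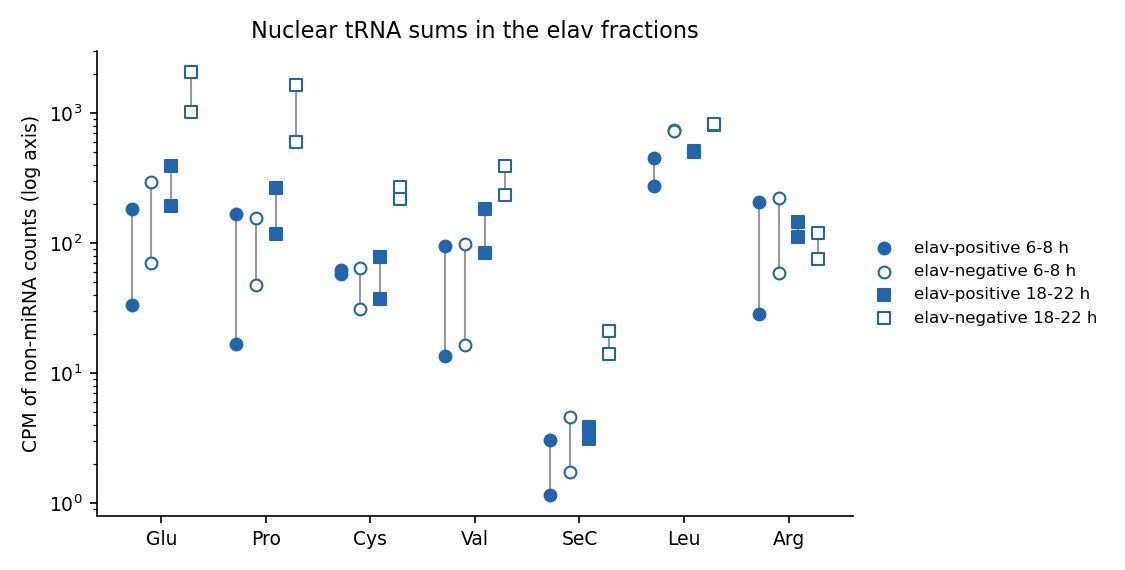
Level of 7 amino acid sums (CPM of counts outside miRNA features, logarithmic axis) in the 4 elav groups. Points are libraries, filled for elav-positive and open for elav-negative cells, circles for 6-8 h and squares for 18-22 h, and a line joins the 2 libraries of a group. Glu, Pro, Cys, Val and SeC are highest in both elav-negative libraries at 18-22 h, while Arg overlaps among all 4 groups.

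The stage comparison within elav-negative cells, 18-22 h against 6-8 h, asks how the non-neuronal cells changed as the embryo matured. It shares the elav-negative libraries at 18-22 h with the comparison above, so its calls are not independent of that result. Nuclear tRNA counts were higher late. Of the 22 amino acid sums, 9 rose and 0 fell: Pro, Glu, SeC, Val, Cys, Thr, Ala, Lys and Gln. Among all rows 11.9% were called in either direction and 6.62% were called higher late. The median log2 fold change was 1.69 over the amino acid sums and 0.08 over all rows. The total rose from 2274 ± 988 to 7039 ± 1971 CPM (SD, n = 2), a log2 fold change of 1.63 ± 0.49 (edgeR adjusted p = 0.0361). That call was lost without any 1 of the 4 libraries, with log2 fold changes of 1.25 to 2.15, and without both divergent 6-8 h libraries of the elav sort it was 1.25 (edgeR adjusted p = 0.192).

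Pro tRNAs rose from 156 and 47.4 CPM early to 607 and 1667 CPM late, a log2 fold change of 3.48 ± 0.78 (edgeR adjusted p = 0.00553). Glu tRNAs rose from 298 and 70.2 CPM to 1033 and 2085 CPM, a log2 fold change of 3.08 ± 0.70 (edgeR adjusted p = 0.00640). No early library reached a late one in either class, and the early replicates lay far apart: replicate 2 of elav-negative cells at 6-8 h was the low one. SeC went from 4.61 and 1.73 CPM to 14.2 and 21.3 CPM, a log2 fold change of 2.53 ± 0.74 (edgeR adjusted p = 0.0282). Val went from 98.8 and 16.5 CPM to 235 and 392 CPM, a log2 fold change of 2.45 ± 0.73 (edgeR adjusted p = 0.0315). All 4 calls were lost without elav-negative 6-8 h replicate 2, and those of Pro, SeC and Val also without elav-negative 18-22 h replicate 2 and those of SeC and Val also without replicate 1 of that group. The number of called sums was 2 without elav-negative 6-8 h replicate 2, and 6 and 5 without replicates 1 and 2 of elav-negative cells at 18-22 h.

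Cys and Thr, singled out after their values were seen, were the amino acid sums called in this comparison without any 1 of the 20 libraries. Cys had 64.3 and 31.1 CPM early and 220 and 273 CPM late, a log2 fold change of 2.38 ± 0.44 (edgeR adjusted p = 0.00133). Thr had 64.0 and 37.2 CPM early and 248 and 252 CPM late, a log2 fold change of 2.31 ± 0.42 (edgeR adjusted p = 0.00137). For both, every late library lay well above every early one. Neither was called when libraries were scaled to their nuclear tRNA total.

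By anticodon, 17 of 45 sums rose and 0 fell. Glu-TTC rose from 122 and 34.4 CPM to 818 and 1634 CPM, the largest log2 fold change by the naming rule at 3.98 ± 0.69 (edgeR adjusted p = 0.000946), and this call was made without any 1 of the 20 libraries. Pro-CGG rose from 91.1 and 31.2 CPM to 375 and 1169 CPM, a log2 fold change of 3.67 ± 0.83 (edgeR adjusted p = 0.00638). Pro-TGG, whose 5 genes all lie on 3R, rose from 45.1 and 8.02 CPM to 172 and 359 CPM, a log2 fold change of 3.35 ± 0.82 (edgeR adjusted p = 0.0109). Both Pro calls were lost without elav-negative replicate 2 of either stage.

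Leu, by contrast, stood at 743 and 732 CPM early and 810 and 831 CPM late. The log2 fold change was 0.15 ± 0.41 (edgeR adjusted p = 0.860), and its main anticodon Leu-CAA had -0.12 ± 0.46 (edgeR adjusted p = 0.907). Arg had 225 and 58.6 CPM early and 75.9 and 120 CPM late, with overlap and a log2 fold change of -0.53 ± 0.71 (edgeR adjusted p = 0.694). As shares of the nuclear tRNA counts, Leu fell from 25.0% and 46.5% to 14.4% and 9.85%, while Glu rose from a mean of 7.25% to 18.3% and 24.7%. Scaled to the nuclear tRNA total, 4 sums were called: Pro at 1.88 ± 0.62 (edgeR adjusted p = 0.0245) and Glu at 1.57 ± 0.58 (edgeR adjusted p = 0.0432) higher late, Arg at -2.03 ± 0.62 (edgeR adjusted p = 0.0171) and Leu at -1.56 ± 0.58 (edgeR adjusted p = 0.0433) lower late. The direction of Leu thus depended on the scaling.

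In repo-negative cells between the same stages, 1 amino acid sum rose and 0 fell. The difference from the stage change of elav-negative cells was not tested. Pro was the 1 amino acid sum called, beside 11.7% of all rows called in either direction, 7.31% called higher late and 4.44% called lower late. The 1 of 22 amino acid sums and 3 of 45 anticodon sums called higher lay near that share of 7.31%. Neither count is therefore a result about the tRNAs as a set. Pro stood at 88.2 and 97.0 CPM at 6-8 h and 341 and 590 CPM at 18-22 h, without overlap, a log2 fold change of 2.33 ± 0.74 (edgeR adjusted p = 0.0442). The call was lost without any 1 of the 4 libraries compared. It was also lost without either repo-positive library of 18-22 h, a group outside this comparison. Pro-CGG went from 44.4 and 50.8 CPM to 185 and 365 CPM, a log2 fold change of 2.53 ± 0.79 (edgeR adjusted p = 0.0420), and Pro-AGG from 9.85 and 17.5 CPM to 39.4 and 63.0 CPM, 1.91 ± 0.59 (edgeR adjusted p = 0.0409). Glu-TTC went from 58.7 and 73.3 CPM to 272 and 440 CPM, a log2 fold change of 2.43 ± 0.65 (edgeR adjusted p = 0.0176). Both Pro anticodons lost their calls without any 1 of the 4 libraries, and Glu-TTC without 3 of them. Arg showed the lowest log2 fold change of the 22 sums, from 293 and 176 CPM to 60.8 and 103 CPM, but its -1.51 ± 0.72 missed the threshold (edgeR adjusted p = 0.195). The total, at 0.30 ± 0.48 (edgeR adjusted p = 0.755), did not pass.

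**Figure D5:**
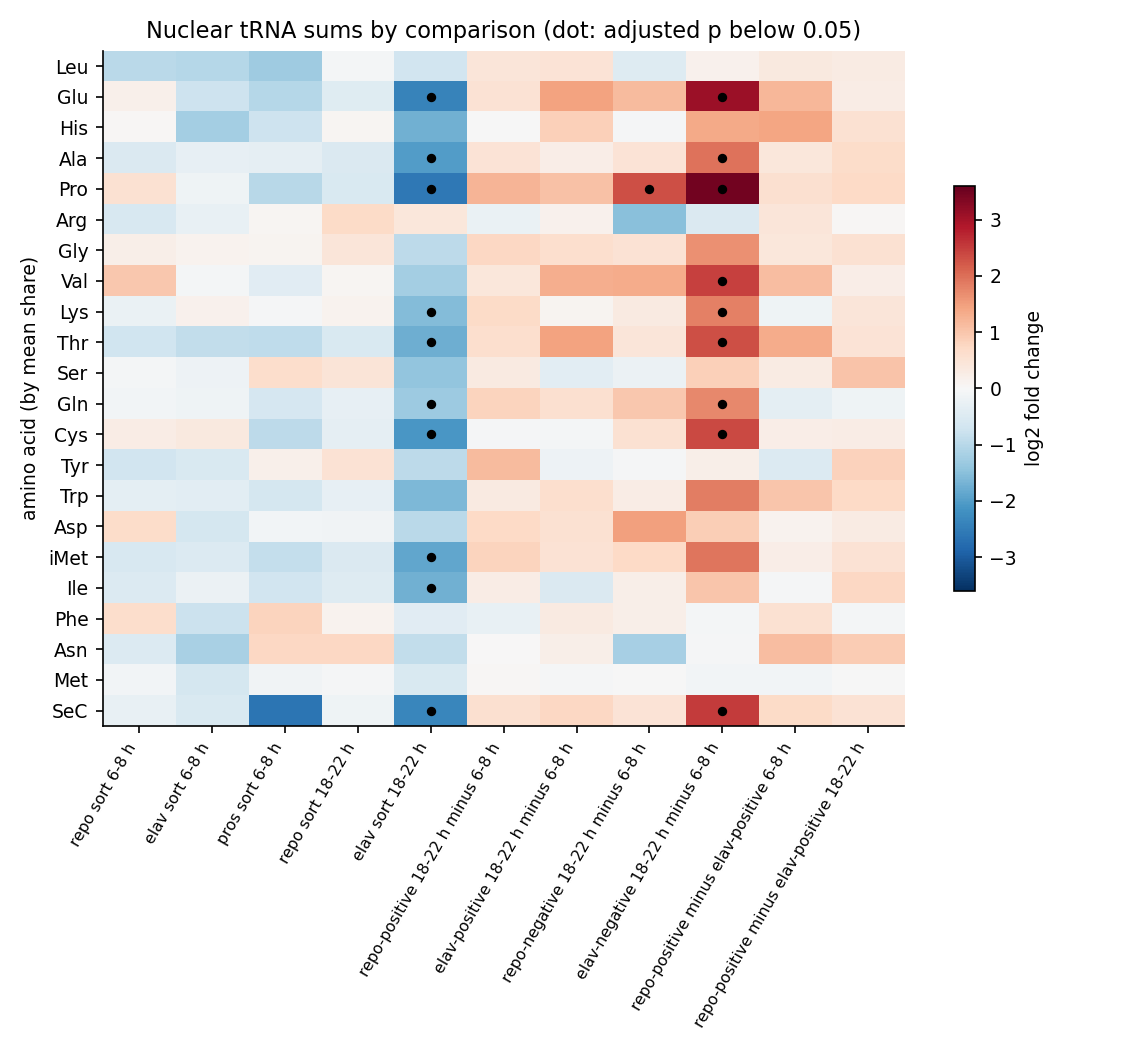
Log2 fold change (colour) of the 22 amino acid sums, ordered by mean share, in 11 comparisons, each as first minus second group (for sorts, positive minus negative). Dots mark adjusted p below 0.05 in the edgeR fit: 10 in the elav sort at 18-22 h, 9 in elav-negative cells between stages and 1 in repo-negative cells between stages.

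No amino acid sum was called in the other 8 comparisons between groups by the edgeR test, and DESeq2 called 0 to 2 in each. In 3 of them other settings gave more. With a replicate block, 3 sums were called in the elav sort at 6-8 h, 5 in elav-positive cells between stages and 5 in repo-positive against elav-positive cells at 6-8 h. Without elav-positive 6-8 h replicate 1 those numbers were 10, 8 and 10. The repo sort at 6-8 h, glia against other cells, had 1 sum with an unadjusted p below 0.05 and 3.56% of all rows called, and its total differed by -0.31 ± 0.48. At 18-22 h the repo sort had 0 such sums, 2.45% of rows called and a total of -0.15 ± 0.48. The elav sort at 6-8 h had 2 such sums, 9.3% of rows called and a total of -0.58 ± 0.48. The pros sort had 4 such sums, 2.55% of rows called and a total of -0.56 ± 0.48. In the repo and elav sorts of 6-8 h and the repo sort of 18-22 h, the direction of these totals flipped under at least 1 other scaling or without 1 library.

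Between the stages, repo-positive cells had 1 sum with an unadjusted p below 0.05, 3.94% of rows called and a total difference of 0.46 ± 0.48, which turned to -0.07 without repo-positive 6-8 h replicate 2. Elav-positive cells had 2 such sums, 3.34% of rows called and a total difference of 0.59 ± 0.48. Repo-positive against elav-positive cells gave 1 such sum at 6-8 h, with 4.16% of rows called and a total difference of 0.56 ± 0.48. That total turned to -0.28 without repo-positive 6-8 h replicate 1 and to -0.05 without elav-positive 6-8 h replicate 2. At 18-22 h there were 0 such sums, with 6.3% of rows called and a total difference of 0.43 ± 0.48. The anticodon Thr-AGT was called in both comparisons that hold elav-positive cells at 6-8 h as the second group. It stood at 31.4 and 7.76 CPM in those cells, at 63.0 and 78.9 CPM in elav-positive cells at 18-22 h (log2 fold change 1.87 ± 0.45, edgeR adjusted p = 0.0286) and at 67.4 and 53.2 CPM in repo-positive cells at 6-8 h (1.64 ± 0.45, edgeR adjusted p = 0.0419). The stage call was lost without elav-positive 6-8 h replicate 2, which had the lowest value, and without either elav-positive library of 18-22 h. The other call was lost without 9 of the 20 libraries in turn, elav-positive 6-8 h replicate 2 and both repo-positive 6-8 h libraries among them.

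Leu had non-overlapping, lower values in the positive fraction of all 3 sorts at 6-8 h without passing the correction in any. In the repo sort it stood at 681 and 254 CPM against 1052 and 777 CPM, in the elav sort at 452 and 275 CPM against 743 and 732 CPM, and in the pros sort at 243 and 123 CPM against 441 and 447 CPM. The log2 fold changes were -0.97 ± 0.41 (edgeR adjusted p = 0.227), -1.02 ± 0.41 (edgeR adjusted p = 0.135) and -1.28 ± 0.41 (edgeR adjusted p = 0.108). Of the 22 sums, 5, 1 and 14 did not overlap in the repo, elav and pros sorts at 6-8 h. Rows outside the tRNAs were not counted for overlap, so these counts cannot be set against a share of all rows. Neither they nor the lack of overlap for Leu is therefore a result about the tRNAs. In the repo sort at 18-22 h Leu did overlap, at 694.5 and 558.9 CPM against 589.1 and 730.5 CPM. His was the leading class in the pros sort, at 375 and 586 CPM in pros-positive and 946 and 662 CPM in pros-negative cells, a difference of -0.74 ± 0.68 (edgeR adjusted p = 0.624).

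Whether an effect differs between stages or sorts was tested directly. For the elav sort, 18-22 h minus 6-8 h, Cys was the 1 amino acid sum called, at -2.44 ± 0.60 (edgeR adjusted p = 0.0448), where 1.2% of all rows were called. At 6-8 h Cys had stood at 62.1 and 58.4 CPM in elav-positive and 64.3 and 31.1 CPM in elav-negative cells. This call was lost without 14 of the 20 libraries in turn, with log2 values of -3.05 to -1.97. The total gave -1.04 ± 0.68 (edgeR adjusted p = 0.584). No amino acid sum was called in the edgeR tests of the repo sort between stages (0.209% of rows, 0 sums with an unadjusted p below 0.05), of the elav against the repo sort at 6-8 h (1.55% of rows, 0 sums) or of the elav against the repo sort at 18-22 h (6.31% of rows, 7 sums). The last of these had negative values for all 22 sums, from -2.18 to -0.30, and a total of -1.47 ± 0.69 (edgeR adjusted p = 0.268).

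Most classes followed the total across the groups. Over the 10 group means the Pearson r between the log2 CPM of an amino acid and that of the nuclear tRNA total was 0.968 for Glu, 0.964 for iMet and 0.951 for Thr, values that hold each class as a part of the total. It was 0.389 for Leu and 0.0964 for Arg, the lowest of the 22. All r values given here include both pros groups, whose mapping cannot be told apart from their sort. None was computed without them. Leu had its lowest group mean, 183 CPM, in pros-positive cells. Mitochondrial tRNAs are 22 genes transcribed inside the organelle by its own polymerase, and r was 0.0509 between their total and the nuclear one. Their lowest group means were 701 CPM in pros-positive and 1050 CPM in pros-negative cells, so this r rests in part on the pros libraries. The mitochondrial total stood at 2139 and 3398 CPM in elav-negative and 2333 and 2655 CPM in elav-positive cells at 18-22 h. That was a log2 fold change of -0.15 ± 0.70 (edgeR adjusted p = 0.929). Between stages in elav-negative cells its log2 fold change was 0.16 ± 0.70 (edgeR adjusted p = 0.920). The difference between both classes of tRNA was not tested. Of the 332 other rows with a mean of at least 100 CPM, those most like the nuclear tRNA total over the 10 group means were nur (r = 0.874), kst (r = 0.870), which encodes the spectrin beta-heavy chain, and the snoRNA gene snoRNA:185 (r = 0.847).

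Genes of the tRNA pathway were read through short fragments of their transcripts in these libraries, which stand for no measured mRNA level. Of 20 aminoacyl-tRNA synthetase genes, 1 of which was the mitochondrial LeuRS-m, 5 fell and 0 rose in elav-positive against elav-negative cells at 18-22 h, where 5.56% of all rows were called lower. ThrRS had -2.12 ± 0.50 (edgeR adjusted p = 0.00612), GlnRS -1.87 ± 0.60 (edgeR adjusted p = 0.0415) and AlaRS -1.36 ± 0.45 (edgeR adjusted p = 0.0494). SerRS was another (edgeR adjusted p = 0.00469), and the fifth was GluProRS, a fused enzyme that loads both Glu and Pro, at -1.29 ± 0.43 (edgeR adjusted p = 0.0494). The median over the 20 was -0.96. In elav-negative cells between stages, where 9 tRNA sums rose, 0 of the 20 synthetases were called by edgeR and 0 had an unadjusted p below 0.05, with a median of 0.10. Single calls were made elsewhere, 1 of 20 each, where 9.3% (elav sort at 6-8 h) and 3.56% (repo sort at 6-8 h) of all rows were called, so neither count is a result about the list. AspRS fell in the elav sort at 6-8 h (-1.94 ± 0.53, edgeR adjusted p = 0.0219) and MetRS rose in the repo sort at 6-8 h (2.16 ± 0.60, edgeR adjusted p = 0.0499).

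In the elav sort at 18-22 h, where 5.56% of all rows were called lower, 4 of 5 tested elongation factor genes fell. They were eEF1beta (-1.75 ± 0.35, edgeR adjusted p = 0.00158) and eEF1delta, which recycle the factor that delivers tRNAs, their partner eEF1gamma, and the translocation factor eEF2 (-1.19 ± 0.29, edgeR adjusted p = 0.00655). At 6-8 h 2 of the 5, eEF1beta and eEF2, fell in the same sort, where 9.3% of all rows were called in either direction. Of 14 tested genes of RNA polymerase III and its factors, Tbp fell in the elav sort at 18-22 h (-3.90 ± 0.83, edgeR adjusted p = 0.00252) and rose late in elav-negative cells (2.77 ± 0.78, edgeR adjusted p = 0.0246). Tbp was the 1 gene of this list called in each, beside 5.56% of all rows called lower and 6.62% called higher. Neither count is thus a result about the list, and the listed gene Trf was tested and not called. Tbp encodes the TATA-binding protein, which is not particular to RNA polymerase III. The polymerase subunit gene Polr3B (-2.08 ± 0.67, edgeR adjusted p = 0.0463) and the initiation factor gene Brf (-1.95 ± 0.61, edgeR adjusted p = 0.0422) fell late in repo-negative cells. These were 2 of the 14, where 4.44% of all rows were called lower. Medians of this list were negative late in both negative fractions, at -1.42 in repo-negative and -1.12 in elav-negative cells. Of 17 tested tRNA processing and modification genes, 0 were called by edgeR in any of the 11 comparisons, and 0 to 3 had an unadjusted p below 0.05. DESeq2 was not read for these lists. Of 6 genes of small RNA cleavage and binding, AGO1, which binds miRNAs, rose (1.18 ± 0.28, edgeR adjusted p = 0.00622) and Dcr-2, which cuts double-stranded RNA, fell (-1.93 ± 0.42, edgeR adjusted p = 0.00318) in the elav sort at 18-22 h. Dcr-2 also fell late in elav-positive cells (-1.58 ± 0.42, edgeR adjusted p = 0.0419). Of all rows, 14.5% were called in either direction in the elav sort at 18-22 h and 3.34% in elav-positive cells between stages.

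Markers of other cells also differed in the elav sort at 18-22 h and late in the negative fractions. In that sort 5.56% of all rows were called lower. Late in elav-negative and repo-negative cells 6.62% and 7.31% were called higher. All 5 hemocyte genes (Hml, Pxn, srp, NimC1 and Col4a1, of which Col4a1 encodes a basement membrane collagen) fell in elav-positive against elav-negative cells at 18-22 h, and 3 of 5 rose late in elav-negative cells and 4 of 5 in repo-negative cells. Their summed level was 3268 and 1748 CPM in elav-negative cells at 18-22 h, 143 and 119 CPM in elav-positive cells of that stage, and 70.7 and 142 CPM in elav-negative cells at 6-8 h. In repo-negative cells it was 2821 and 1337 CPM late and 45.0 and 71.0 CPM early. The repo sort at 18-22 h also had 4 of 5 hemocyte genes lower, with sums of 242 and 119 CPM in repo-positive cells. GATAe was lower there too, and 0 of 5 muscle genes were called. In that sort 2.45% of all rows and 0 tRNA sums were called, and the tRNA total differed by -0.15 ± 0.48. The tRNA total of repo-negative cells between stages, at 0.30 ± 0.48, was not called either. Of 5 muscle genes, 3 fell in the elav sort at 18-22 h while 4 rose and 1, the muscle regulator Mef2, fell late in elav-negative cells, with summed levels of 1634 and 1207 CPM in elav-negative and 636 and 558 CPM in elav-positive cells at 18-22 h. Of 4 genes of epidermis and gut, GATAe, a gut transcription factor, fell in the elav sort at 18-22 h and rose late in elav-negative cells, where shg and grh fell. In repo-negative cells between stages 4 of 5 muscle genes rose and Mef2 fell. Neuronal genes rose late as well, 5 of 6 in repo-negative and 3 of 6 in elav-negative cells, with summed levels of 334 and 327 CPM in the former and 43.9 and 80.0 CPM in the latter at 18-22 h. The part of these cell types in the tRNA differences was not tested.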

How the data were processed

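Small RNA of 20 libraries in 10 groups of 2 had been sequenced as single strand-specific reads. The authors deposited expected counts for 17559 features. Per the file headers, featureCounts 1.5.1 divided each multi-mapping read among its places and counted it for every overlapping exon of Ensembl release 85 (BDGP6). Per the submitters' processing notes, Bowtie 1.1.2, SAMtools 1.8 and DESeq2 were used. The design assumed counts, and the deposited expected counts were not whole, so sums were rounded before testing.

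Symbols came from Ensembl release 115 (17253 identifiers matched, 306 not). From all rows, 237 miRNA rows and 59 rows that share an exon with one were left out, which left 17263. The sums by amino acid, by anticodon and over all members each replaced the member rows in 1 table, tested with edgeR 4.0.16 (R 4.3.3; TMM, filterByExpr, group as the only term, 10 residual degrees of freedom, common biological coefficient of variation 0.509). Deposited tables of the authors' miRNA and gene pairs were not used. The test was run on simulated data with a smaller spread than these libraries and with changes planted outside the tRNA sums. That run gives no error rate for the tRNA sums. Alternatives were RLE factors, scaling to the total count with and without rRNA or to the nuclear tRNA total, no filter, DESeq2 1.42.0, a replicate block, and leaving out libraries. The labels call the duplicates biological but do not say whether they came from separate collections, so p-values measure the spread between these libraries. Reads shared with an overlapping gene were counted for both in 4 members: tRNA:Glu-CTC-3-8, tRNA:Tyr-GTA-1-9, tRNA:Pro-AGG-1-3 and tRNA:Thr-AGT-1-2.

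Named for a comparison were the total and, among sums past the correction whose groups did not overlap and whose higher group averaged 10 CPM or more, the 4 amino acids and 3 anticodons per direction with the largest fold change. Arg, Leu, Cys, Thr and His were named in addition after their values were seen or for their share. The members and lists were chosen with earlier results of these data known. Of the pathway lists, 14 of 16 polymerase, 17 of 24 processing and 5 of 7 elongation entries could be tested.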

Additional observations from a re-analysis of the deposited data

Results flagged for a closer look

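The effect of the elav sort on Cys tRNA counts differed between the stages by a test of the difference itself, with a log2 value of -2.44 for 18-22 h minus 6-8 h (standard error 0.60, edgeR adjusted p = 0.0448 over 11471 rows). The sort itself gave -2.09 at 18-22 h, where both elav-positive libraries (37.3 and 78.4 CPM) lay below both elav-negative ones (220 and 273 CPM). At 6-8 h the values overlapped, at 62.1 and 58.4 CPM against 64.3 and 31.1 CPM. Without both 6-8 h replicate 2 libraries of the elav sort, and when scaled to the nuclear tRNA total, the difference missed the threshold. The call was also lost without 14 of the 20 libraries in turn, some of them outside the elav sort. Leaving out 1 library at a time gave log2 values of -3.05 to -1.97.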

How the results depend on the processing

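Every value here is the number of amino acid sums called (of 22) or the log2 fold change of the nuclear tRNA total. With 2 libraries a group, calls moved with the setting, and the cause was not tested. Scaling to the total count shifted the median of all rows by -0.523 to 0.686 on the log2 scale, and scaling to the nuclear tRNA total by -1.69 to 1.60. Total count scaling, with and without rRNA rows, called 5 sums in the elav sort at 18-22 h, and that without rRNA called 1 in the pros sort. The total of the elav sort at 18-22 h was then -1.21 and -1.09, and neither passed the threshold. Totals that missed the threshold changed sign: the repo sort at 18-22 h to 0.01 and 0.14, repo-negative cells between stages to -0.09 and -0.05, the elav minus repo sort at 6-8 h to 0.11 and 0.04, and without rRNA the repo sort (0.05) and the elav sort (0.09) at 6-8 h. Scaling to the nuclear tRNA total left 1 call (higher) in the elav sort at 18-22 h, 0 in repo-negative and 4 in elav-negative cells between stages. Without the filter, 1 sum was called in the pros sort, 2 in elav-positive and 3 in repo-negative cells between stages and 1 in repo-positive against elav-positive cells at 6-8 h. DESeq2 called 2, 1 and 1 in the pros sort, in elav-positive cells between stages and in repo-positive against elav-positive cells at 6-8 h, and RLE factors 1 in elav-positive cells between stages.

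The labels do not say whether replicate numbers pair libraries, and they were not taken as pairs. The correlation of same-numbered deviations within a sort was 0.0139 to 0.156, and both replicate 2 libraries of the elav sort at 6-8 h stood apart together. With a replicate block, the repo sort at 6-8 h had 1 call, with 3 in the elav sort at 6-8 h, 2 in the pros sort, 1, 5 and 5 in repo-positive, elav-positive and repo-negative cells between stages, and 5 and 1 in repo-positive against elav-positive cells at 6-8 h and 18-22 h.

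Without both elav 6-8 h replicate 2 libraries, 1 sum was called in the pros sort, 3 in repo-negative and 5 in elav-negative cells between stages. The total was then 1.25 (edgeR adjusted p = 0.192) in elav-negative cells between stages and -0.05 in repo-positive against elav-positive cells at 6-8 h. Leaving out 1 library at a time, the calls ranged from 0 to 1 in the repo sort at 6-8 h, 0 to 10 in the elav sort at 6-8 h, 0 to 1 in the pros sort, 0 to 12 in the elav sort at 18-22 h, 0 to 8 in elav-positive, 0 to 1 in repo-negative and 2 to 12 in elav-negative cells between stages, and 0 to 10 in repo-positive against elav-positive cells at 6-8 h. The totals ranged from -1.16 to 0.22 in the repo sort at 6-8 h, -1.54 to 0.04 in the elav sort at 6-8 h, -0.33 to 0.03 in the repo sort at 18-22 h, -1.95 to -1.26 in the elav sort at 18-22 h, -0.07 to 1.31 in repo-positive and 1.25 to 2.15 in elav-negative cells between stages, -0.28 to 1.52 in repo-positive against elav-positive cells at 6-8 h, -0.38 to 1.00 for the stage difference of the repo sort, and -1.23 to 0.57 for the elav minus the repo sort at 6-8 h. The 10 calls of the elav sort at 6-8 h came without elav-positive replicate 1. Rare classes such as Met and SeC rested on few counts, at 0 to 80.5 and 9 to 145 per library.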
